A study of Homo sapiens with 4 samples.

Results

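The genes described here encode growth factors of fibroblasts and blood vessels and the receptors that bind them: VEGFA, VEGFC, ANGPTL4, FGF2 and HGF as secreted factors, and PDGFRA, PDGFRB, FGFR1, MET and AXL as receptor tyrosine kinases. They were chosen by gene symbol as a list of 10 genes, and all 10 had a row among the 12033 genes with RNA-seq values. RNA was sequenced from BJ-indRASG12V cells, which are human BJ foreskin fibroblasts immortalized with hTERT in which 4-hydroxytamoxifen (4-OHT) switches on oncogenic RAS and drives the cells into oncogene-induced senescence (OIS). All 4 libraries came from cells that carried the inducible RAS, were transduced with a CRISPR vector and received 4-OHT for 14 days. The vector held sgRNA-AP1-69 or sgRNA-AP1-71, both of them guides to the AP-1 motif inside the enhancer EnhAP1-OIS1, sgRNA-FOXF1 against the FOXF1 gene itself, or sgRNA-NT, the non-targeting control. The libraries are called by these guides (AP1-69, AP1-71, FOXF1 and NT) where they are listed together. The cells are transduced populations with a mixture of edits, not clones, and cells without 4-OHT were not analysed here. Each condition had 1 library, which leaves every value without a replicate error and allows no test across samples. FOXF1 mRNA was at 11.1, 7.8 and 25 RPKM in the AP1-69, AP1-71 and FOXF1 libraries, against 29.6 RPKM with sgRNA-NT. An edit in a coding sequence need not lower its mRNA, so this level does not check the sgRNA-FOXF1 guide. By western blot, the paper reports an effective knockout of FOXF1. It also reports that cells with either enhancer guide, or with sgRNA-FOXF1, bypassed OIS under 4-OHT. They stained less for β-galactosidase, a mark of senescence, and more for BrdU, a mark of proliferation, than cells with sgRNA-NT. Every ratio to sgRNA-NT thus sets populations that bypassed senescence beside a senescent one. The part of this difference in the ratios was not tested.

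Growth factors of these families are released by one cell, bind a receptor tyrosine kinase on the same or another cell and feed the RAS and MAP kinase pathway, among others. Fibroblasts are known as both a source and a target of them: platelet-derived growth factors act on fibroblasts through PDGFRA and PDGFRB, fibroblast growth factors through FGFR1, and fibroblasts themselves supply VEGF, HGF and other factors to endothelial and epithelial cells. Senescent fibroblasts are known to secrete many such factors. In these cells a downstream effector, RAS, is switched on directly by 4-OHT.

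Levels are given as RPKM, reads per kilobase of transcript scaled to library size, which the authors quantile-normalized over the 4 libraries and deposited to 1 decimal with a floor of 1 RPKM. The read depth behind them is unknown, and counting error cannot be given. A ratio is called lower or higher at a 1.5-fold difference, and only the 7596 genes that averaged 2 RPKM or more were compared. Of the 10 growth factor and receptor genes, 8 passed this filter, each at 2.0 RPKM or more in every library, while VEGFA (mean 1.38 RPKM) and HGF (1.0 RPKM) did not. As a yardstick for scatter between libraries aimed at the same site, the log2 ratio of sgRNA-AP1-71 to sgRNA-AP1-69 had an SD of 0.33 over 2501 genes at 2 to 5 RPKM, 0.27 over 3140 genes at 5 to 20 RPKM and 0.27 over 1955 genes at 20 RPKM and above. This spread is between separate guides and is not a replicate error.

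VEGFC, PDGFRA and MET were lower in each of the 3 targeted libraries than with sgRNA-NT, whereas the levels of FGFR1 and PDGFRB differed little. With sgRNA-AP1-69, 4 of the 8 compared growth factor and receptor genes were lower (VEGFC, ANGPTL4, PDGFRA and MET) and 0 were higher, where 9.93% of all compared genes were lower and 8.18% higher. With sgRNA-AP1-71 the same 4 genes were lower and 0 were higher, against 14.7% and 14.0% of all compared genes. With sgRNA-FOXF1, VEGFC, FGF2, PDGFRA and MET were lower and 0 were higher, against 13.2% and 11.6%. Lower in all 3 libraries were 3 of the 8 genes, or 37.5%, and 444 of all 7596 compared genes, or 5.85%. After a correction for transcript length 1 of the 8, VEGFC, was lower in all 3, as were 242 of 7566 genes, and at a 2-fold call again 1, VEGFC, and 130 genes. With a pseudocount of 1 it was 2, VEGFC and PDGFRA, beside 345 of 7596 genes. A correction for GC content left the same 2, beside 467 of 7566 genes. The median log2 ratio of the 8 genes was -0.47, -0.69 and -0.42 in the AP1-69, AP1-71 and FOXF1 libraries, beside 0.07, 0.08 and 0.05 over all compared genes. The 3 comparisons share the single sgRNA-NT library, and a deviation of that library would enter all of them. With ratios centred on the median of all genes, 442 genes were higher and 909 lower with sgRNA-AP1-69 (621 and 754 without centring), and 813 and 1301 with sgRNA-AP1-71 (1067 and 1117).

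**Figure D1:**
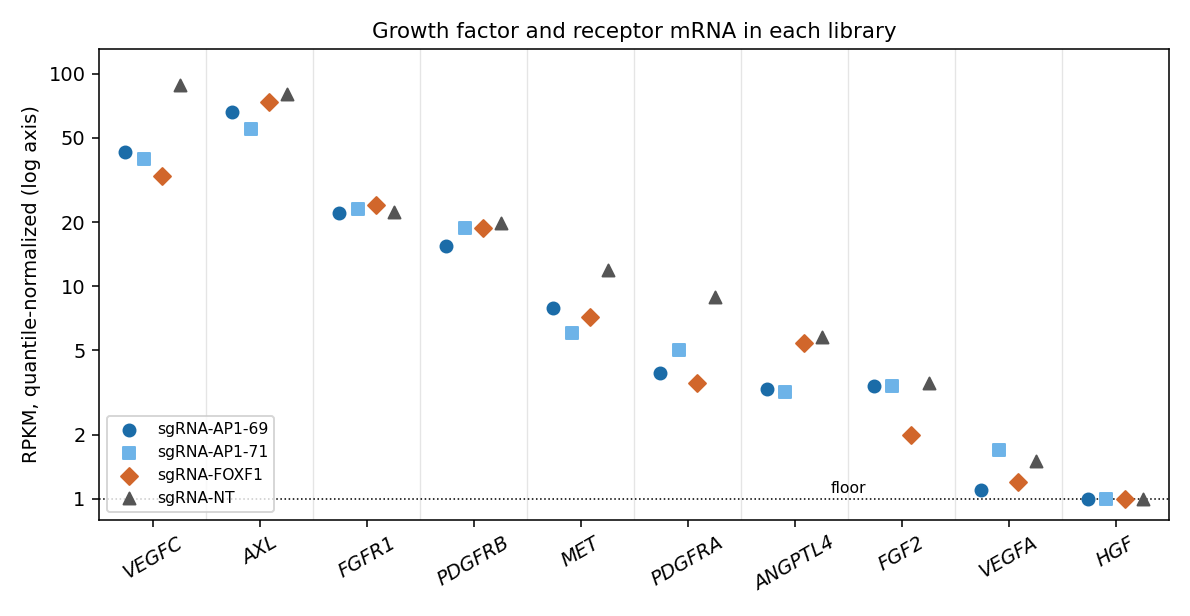
Level of each of the 10 genes in RPKM (log axis) in the libraries with sgRNA-AP1-69, sgRNA-AP1-71, sgRNA-FOXF1 and sgRNA-NT, 1 point per library, with genes ordered by their level with sgRNA-NT and the floor of 1 RPKM as a dotted line. The sgRNA-NT point of VEGFC, at 88.7 RPKM, lies above those of the targeted libraries at 33.2 to 42.8 RPKM, and the points of FGFR1 lie together at 22.2 to 24.1 RPKM.

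Of the secreted factors, VEGFC was the most abundant. It encodes a ligand of the receptor VEGFR-3 that is known for the growth of lymphatic vessels. VEGFC mRNA was at 42.8, 39.7 and 33.2 RPKM in the AP1-69, AP1-71 and FOXF1 libraries, against 88.7 RPKM with sgRNA-NT. The targeted libraries lay close together and all below the control. Relative to sgRNA-NT the level was lower by 2.07-fold, 2.23-fold and 2.67-fold, which are log2 ratios of -1.05, -1.16 and -1.42. Of compared genes, 2.8%, 4.3% and 1.8% had a lower log2 ratio in the same comparisons. In the control library 96.2% of all genes were below VEGFC in level, and with sgRNA-FOXF1 90.0% were. VEGFC (ENSG00000150630) lies on the minus strand of chr4:177604689-177714076 in GRCh37, and its canonical transcript has 7 exons and 2262 nt.

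VEGFA, the main angiogenic ligand of endothelial cells, was close to the floor, at 1.1, 1.7 and 1.2 RPKM in the AP1-69, AP1-71 and FOXF1 libraries, against 1.5 RPKM with sgRNA-NT. The libraries show no common direction. A gene at 1.5 RPKM in the control cannot be more than 1.5-fold lower above a floor of 1 RPKM, so a larger fall of VEGFA could not be seen. VEGFA (ENSG00000112715, chr6:43737921-43754224, plus strand, GRCh37) has 8 exons in its canonical transcript of 3609 nt. VEGFB, a further ligand of the family, was at 22.7, 20 and 28.9 RPKM in the AP1-69, AP1-71 and FOXF1 libraries and at 28.2 RPKM with sgRNA-NT. Within a library, VEGFC mRNA was 1.89, 1.99 and 1.15 times that of VEGFB in the targeted libraries in the same order, against 3.15 times with sgRNA-NT. VEGFC was thus above VEGFB in every library, by the smallest margin with sgRNA-FOXF1.

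ANGPTL4 encodes a secreted angiopoietin-like protein that inhibits lipoprotein lipase and acts on vessel permeability. Its mRNA was at 3.3 and 3.2 RPKM with the enhancer guides (AP1-69, then AP1-71) and at 5.4 RPKM with sgRNA-FOXF1, against 5.8 RPKM with sgRNA-NT. The enhancer guides lay below the other libraries, at log2 ratios to sgRNA-NT of -0.81 and -0.86, and the sgRNA-FOXF1 library lay next to the control at -0.10. Relative to the mean of both enhancer guides, ANGPTL4 was 1.66-fold higher with sgRNA-FOXF1, the 1 compared growth factor or receptor gene above the 1.5-fold limit there, beside 5.86% of all compared genes. The log2 ratios of that comparison had a Spearman correlation of 0.60 with transcript GC content over 7566 genes, which are not independent of each other. After a correction for GC content the log2 ratio of ANGPTL4 was 0.42, against 0.73 without it, and it was no longer called higher. HRAS mRNA, which may include transcripts of the induced transgene, was also lower with the enhancer guides, at 446.4 and 427.4 RPKM, than with sgRNA-FOXF1 at 707.6 RPKM or sgRNA-NT at 829.4 RPKM. Its part in the ANGPTL4 values was not tested. ANGPTL4 (ENSG00000167772) lies on chr19:8428173-8439254 in GRCh37 on the plus strand, with 7 exons in a canonical transcript of 1872 nt and 63.3% GC.

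FGF2, the basic fibroblast growth factor and a mitogen of fibroblasts, differed from the control in the sgRNA-FOXF1 library and not by the 1.5-fold limit with either enhancer guide. It was at 3.4 RPKM with both enhancer guides and 2.0 RPKM with sgRNA-FOXF1, against 3.5 RPKM with sgRNA-NT. The sgRNA-FOXF1 library stood apart from the others, 1.75-fold lower than the control (log2 ratio -0.81, between -0.86 and -0.75 given rounding to 1 decimal). Against the mean of both enhancer guides FGF2 was 1.70-fold lower with sgRNA-FOXF1, the 1 of the 8 genes called lower there, beside 3.54% of all compared genes. With a correction for transcript length its log2 ratio to sgRNA-NT was -0.44 and the gene was not called. Across 7566 genes, not independent of each other, the sgRNA-FOXF1 to sgRNA-NT ratios had a Spearman correlation of 0.33 with transcript GC content. FGF2 has 36.83% GC, and after a correction for GC content its log2 ratio to sgRNA-NT was -0.595. To the mean of the enhancer guides it was -0.5935. Both were still called, close to the 1.5-fold limit, a log2 ratio of 0.585 in size. FGF2 (ENSG00000138685, chr4:123747837-123819391, plus strand, GRCh37) overlaps NUDT6 on the opposite strand over 11.8% of its exonic bases, and NUDT6 was at the floor in all 4 libraries. FGF1, a related ligand of the same receptors, was higher in every targeted library, at 7.7, 8.1 and 8.1 RPKM in the AP1-69, AP1-71 and FOXF1 libraries against 4.0 RPKM with sgRNA-NT, so that the FGF1 level was 2.26, 2.38 and 4.05 times that of FGF2 in the targeted libraries and 1.14 times in the control.

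HGF, the ligand of MET and a product of many fibroblasts, was listed at the floor of 1.0 RPKM in all 4 libraries, so its level was at most 1 RPKM and no fold can be given. HGF (ENSG00000019991) lies on the minus strand of chr7:81328326-81399754 in GRCh37. Its receptor gene was expressed.

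MET, the receptor of HGF and a driver of cell motility, was at 7.9, 6.0 and 7.2 RPKM in the AP1-69, AP1-71 and FOXF1 libraries, against 11.9 RPKM with sgRNA-NT. All targeted libraries were below the control, 1.51-fold, 1.98-fold and 1.65-fold lower, with log2 ratios of -0.59, -0.99 and -0.72. The first of these is at the 1.5-fold limit, since rounding to 1 decimal allows 1.49-fold to 1.52-fold, and with a pseudocount of 1 it was not called. MET has the longest canonical transcript of the 8 genes at 6822 nt, longer than 91.1% of compared genes, and after a correction for transcript length its log2 ratios were -0.26, -0.61 and -0.35, of which the middle one was called. After a correction for GC content they were -0.55, -1.08 and -0.52, and again the middle one alone was called. MET (ENSG00000105976) lies on chr7:116312250-116438431 in GRCh37 on the plus strand, with 21 exons.

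PDGFRA, the platelet-derived growth factor receptor that marks many mesenchymal cells, was at 3.9, 5.0 and 3.5 RPKM in the AP1-69, AP1-71 and FOXF1 libraries, against 8.9 RPKM with sgRNA-NT. It was 2.28-fold, 1.78-fold and 2.54-fold lower in the targeted libraries, with log2 ratios of -1.19, -0.83 and -1.35. The difference between the enhancer guides, a log2 ratio of 0.36 for sgRNA-AP1-71 to sgRNA-AP1-69, stands beside an SD of 0.27 between these libraries at 5 to 20 RPKM. Its relative PDGFRB, which binds the same ligand family and marks pericytes as well as fibroblasts, was at 15.5, 18.9 and 18.9 RPKM in the AP1-69, AP1-71 and FOXF1 libraries, against 19.8 RPKM with sgRNA-NT, and its log2 ratios of -0.35, -0.07 and -0.07 were not called. The PDGFRA level was 0.25, 0.26 and 0.19 times that of PDGFRB in the targeted libraries and 0.45 times in the control. PDGFRB was therefore the more abundant receptor in each library, and its margin over PDGFRA was widest with sgRNA-FOXF1. In GRCh37 PDGFRA (ENSG00000134853) lies on chr4:55095447-55164412 on the plus strand and PDGFRB (ENSG00000113721) on chr5:149493402-149535435 on the minus strand, with 23 exons each. PDGFRA shares 16.1% of its exonic bases with ENSG00000282278, a protein-coding gene model on the same strand, and reads there may have been assigned to either or to neither.

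**Figure D2:**
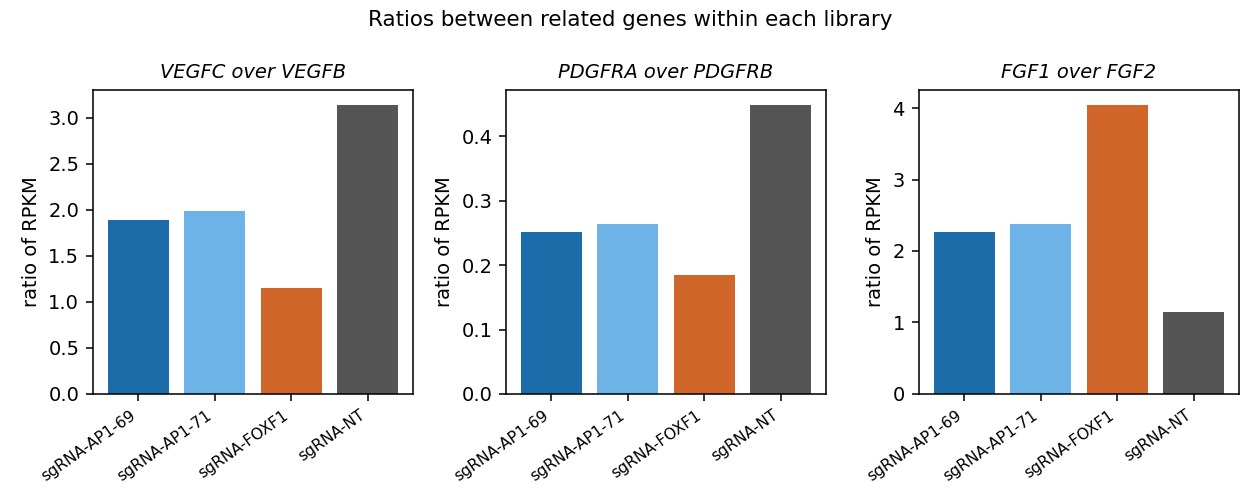
Ratio of the RPKM of VEGFC to VEGFB, PDGFRA to PDGFRB and FGF1 to FGF2 within each library, 1 bar per library from 0, with sgRNA-AP1-69, sgRNA-AP1-71, sgRNA-FOXF1 and sgRNA-NT from left to right. The sgRNA-NT bar is the tallest for VEGFC over VEGFB (3.15) and PDGFRA over PDGFRB (0.45) and the shortest for FGF1 over FGF2 (1.14).

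The promoter sequences of the 3 genes that were lower in all targeted libraries, and of ANGPTL4, are shown because the guides compared here aim at an AP-1 site and at a forkhead transcription factor, whose motifs can be looked for in them. The enhancer guides aim at the AP-1 motif inside EnhAP1-OIS1 and not at AP-1 motifs in these promoters. Each is the 250 bases before an annotated RefSeq start in GRCh38.p14, 5′ to 3′ on the strand of the gene, and PDGFRA has 2 such starts. Capitals mark matches to the AP-1 motif TGANTCA, the forkhead motif TAAACA or the hypoxia response core ACGTG on either strand. VEGFC has its window at chr4:176792923-176793172 on the minus strand, PDGFRA at chr4:54229043-54229292 and chr4:54233710-54233959, MET at chr7:116671946-116672195 and ANGPTL4 at chr19:8363905-8364154, all on the plus strand.
VEGFC: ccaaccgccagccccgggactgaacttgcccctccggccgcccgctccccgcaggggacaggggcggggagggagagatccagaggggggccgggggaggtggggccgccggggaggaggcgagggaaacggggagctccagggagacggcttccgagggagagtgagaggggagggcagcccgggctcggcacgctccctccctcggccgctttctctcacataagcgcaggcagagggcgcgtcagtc
PDGFRA, first start: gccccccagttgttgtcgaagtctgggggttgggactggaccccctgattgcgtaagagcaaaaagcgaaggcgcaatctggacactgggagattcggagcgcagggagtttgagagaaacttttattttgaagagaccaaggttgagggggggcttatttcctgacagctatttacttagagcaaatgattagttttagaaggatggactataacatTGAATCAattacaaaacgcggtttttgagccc
PDGFRA, second start: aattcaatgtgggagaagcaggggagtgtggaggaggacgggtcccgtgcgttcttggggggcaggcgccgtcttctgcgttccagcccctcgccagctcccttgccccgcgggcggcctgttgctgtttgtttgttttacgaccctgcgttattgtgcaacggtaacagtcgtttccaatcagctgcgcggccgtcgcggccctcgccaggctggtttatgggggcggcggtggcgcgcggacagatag
MET: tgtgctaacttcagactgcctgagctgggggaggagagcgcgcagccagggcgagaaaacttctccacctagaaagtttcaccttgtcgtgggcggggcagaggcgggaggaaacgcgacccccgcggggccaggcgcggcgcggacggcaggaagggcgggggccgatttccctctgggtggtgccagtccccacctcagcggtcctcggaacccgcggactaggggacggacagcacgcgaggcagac
ANGPTL4: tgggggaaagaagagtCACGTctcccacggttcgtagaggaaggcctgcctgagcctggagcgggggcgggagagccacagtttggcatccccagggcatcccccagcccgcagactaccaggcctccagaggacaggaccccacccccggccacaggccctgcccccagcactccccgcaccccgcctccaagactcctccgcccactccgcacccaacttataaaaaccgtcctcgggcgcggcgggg

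The first PDGFRA window holds 1 AP-1 match, which begins 32 bases before the start. ANGPTL4 holds a hypoxia core 234 bases before its start and a TATA box (TATAAA) 29 bases before it. The windows of VEGFC and MET hold none of the marked motifs, and each has 2 GC boxes (GGGCGG), at 74.0% and 68.4% GC. Windows were used for 8 of the 10 genes, 10 windows in all, without VEGFA and FGFR1. The search over the listed genes left out chr8, where FGFR1 lies, and the search over all promoters did not. Matches to different motifs did not overlap (0 overlaps). The AP-1 motif was in 1 of the 10 windows and in 6.57% of 35116 promoter windows of the same length, the forkhead motif in 1 (that of HGF) and in 11%, the hypoxia core in 2 and in 18.5%, the GC box in 7 and in 42.6%, and the TATA box in 1 and in 10.7%. These matches describe the letters of the windows and say nothing of binding.

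FGFR1, a receptor of fibroblast growth factors, was nearly level: 22.2, 23.2 and 24.1 RPKM in the AP1-69, AP1-71 and FOXF1 libraries, against 22.4 RPKM with sgRNA-NT. Its log2 ratios of -0.01, 0.05 and 0.11 are within the scatter between libraries, and after the length correction they were 0.23, 0.33 and 0.39, also below the 1.5-fold limit. FGFR1 (ENSG00000077782) lies on the minus strand of chr8:38257733-38326352 in GRCh37, with 18 exons in its canonical transcript.

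AXL, a receptor of the TAM family that binds GAS6, was the second most abundant of the 10 genes in the control. It was at 65.8, 55.0 and 73.5 RPKM in the AP1-69, AP1-71 and FOXF1 libraries, against 80.0 RPKM with sgRNA-NT. Every targeted library was below the control, and none by 1.5-fold: the log2 ratios were -0.28, -0.54 and -0.12, and the second, 1.45-fold, fell just short of the limit. With ratios centred on the median of all genes it was called lower. Its ligand gene GAS6 was at 49.2, 37.6 and 58.1 RPKM in the AP1-69, AP1-71 and FOXF1 libraries, against 70.7 RPKM with sgRNA-NT, with log2 ratios of -0.52, -0.91 and -0.28, of which the middle one was called lower. AXL was the most abundant of the 10 genes in each targeted library, where VEGFC came second. AXL (ENSG00000167601) lies on the plus strand of chr19:41725128-41767671 in GRCh37, with 20 exons.

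**Figure D3:**
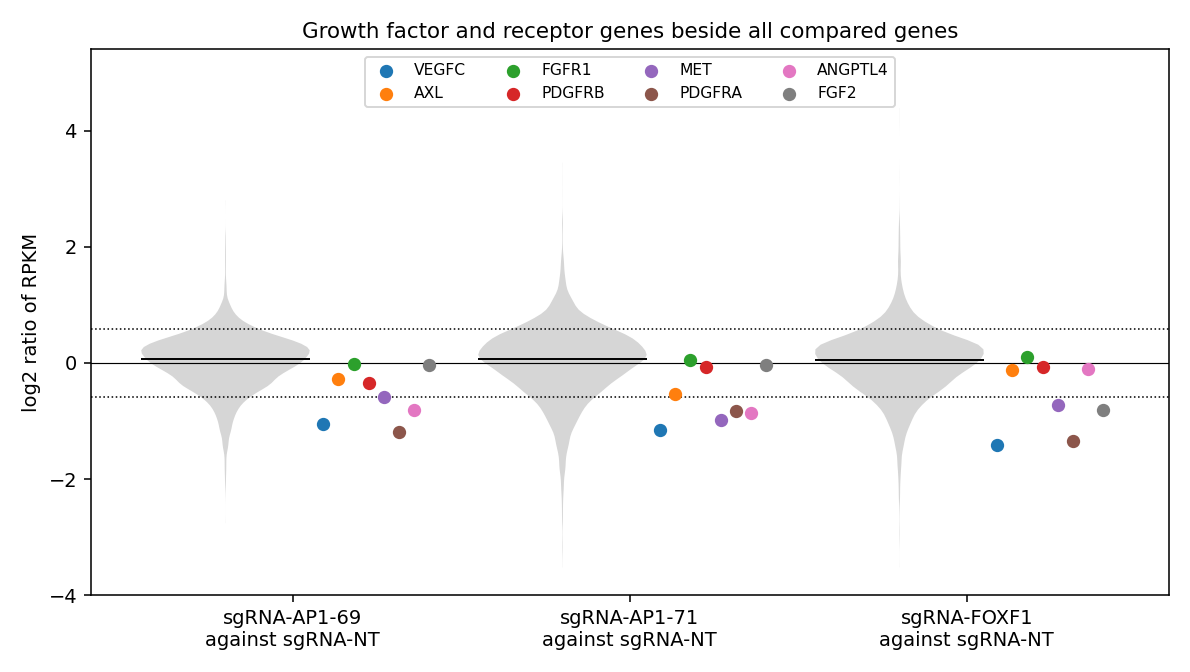
Log2 ratio of RPKM to sgRNA-NT in the AP1-69, AP1-71 and FOXF1 libraries. Grey shapes show the distribution over the 7596 compared genes with its median as a black line, coloured points are the 8 compared growth factor and receptor genes, and dotted lines mark a 1.5-fold difference. VEGFC, PDGFRA and MET lie below the lower dotted line in each comparison (MET at -0.59 with sgRNA-AP1-69, on the line), ANGPTL4 with the enhancer guides and FGF2 with sgRNA-FOXF1.

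Between the enhancer guides, 0 of the 8 genes were called higher and 0 were called lower (sgRNA-AP1-71 over sgRNA-AP1-69), where 2.41% and 2.84% of all compared genes were. The widest differences were those of MET (log2 ratio -0.40) and PDGFRA (0.36). Between sgRNA-FOXF1 and the mean of the enhancer guides, the genes other than ANGPTL4 and FGF2 had log2 ratios from -0.34 (PDGFRA) to 0.29 (AXL), with VEGFC at -0.31.

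Transcript length moved with the ratios. Across 7566 compared genes with a known length, which are not independent of each other, the log2 ratio to sgRNA-NT correlated with transcript length at a Spearman rho of -0.50, -0.44 and -0.45 in the AP1-69, AP1-71 and FOXF1 comparisons. VEGFC at 2262 nt and ANGPTL4 at 1872 nt are shorter than the median of 2902 nt, and the other compared genes of the list are longer, from AXL at 4717 nt to MET at 6822 nt. After a spline correction for length, the log2 ratios of VEGFC were -1.15, -1.27 and -1.55 and those of ANGPTL4 with the enhancer guides -0.97 and -1.05, further from 0 than without it. PDGFRA had -0.90, -0.49 and -1.0, so that it was no longer called with sgRNA-AP1-71. In the same libraries 8, 10 and 7 of 13 transcripts of the mitochondrial genome, a check of RNA quality, were lower and 0 higher in the AP1-69, AP1-71 and FOXF1 libraries than with sgRNA-NT. Of all compared genes 9.93%, 14.7% and 13.2% were lower and 8.18%, 14.0% and 11.6% higher. MT-CO1 and MT-CO2 had the same value in all 4 libraries, 27029.4 and 36067.7 RPKM. Quantile normalization gives 1 value to each of the top ranks, so these transcripts could not be called while their rank stayed the same. The part of length or RNA quality in the growth factor and receptor ratios was not tested beyond this correction.

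**Figure D4:**
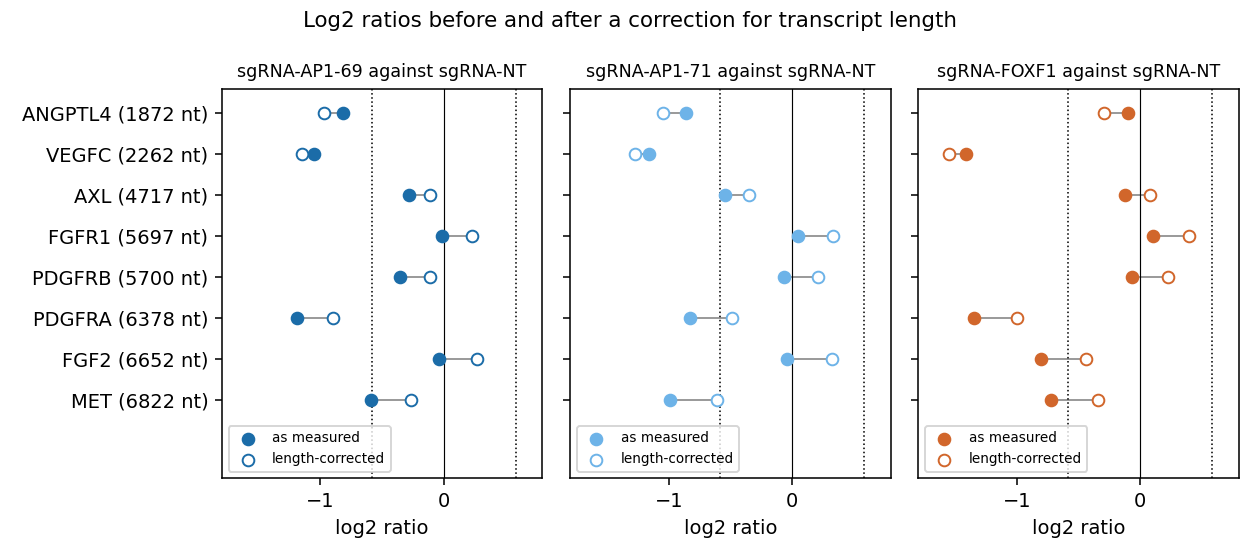
Log2 ratio to sgRNA-NT of the 8 compared genes as measured (filled) and after a spline correction for transcript length (open), with genes ordered from the shortest canonical transcript at the top to the longest at the bottom and dotted lines at a 1.5-fold difference. VEGFC stays beyond the lower line in each panel, while MET moves from -0.59 to -0.26 with sgRNA-AP1-69 and from -0.72 to -0.35 with sgRNA-FOXF1.

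Beyond these genes, the VEGF and angiopoietin list had 17 genes, of which 11 were analysed and 8 compared, VEGFC and ANGPTL4 among them. In it 1, 1 and 2 genes were higher and 3, 3 and 2 lower in the AP1-69, AP1-71 and FOXF1 libraries, where 8.18%, 14.0% and 11.6% of all compared genes were higher and 9.93%, 14.7% and 13.2% lower. With 8 genes compared, a count of 1 or 2 cannot be told from that background. NRP1, the neuropilin co-receptor of VEGF ligands, was at 19.5, 21.0 and 21.5 RPKM in the targeted libraries in this order, against 37.6 RPKM with sgRNA-NT, and was lower in each (log2 ratios of -0.95, -0.84 and -0.81). NRP2, the neuropilin that also binds VEGFC, was at 1.6, 3.0 and 2.9 RPKM against 1.6 RPKM. It reached the mean of 2 RPKM through the sgRNA-AP1-71 and sgRNA-FOXF1 libraries alone, where it was counted as higher, so its count is a description. FLT1, which encodes VEGFR-1, was at 2.5, 4.0 and 2.7 RPKM against 3.7 RPKM. ANGPT1, a ligand of the TIE2 receptor, was at 4.4, 2.5 and 2.8 RPKM against 2.9 RPKM, and ANGPTL2, an angiopoietin-like protein, was at 5.2, 4.8 and 7.6 RPKM against 4.2 RPKM. NRP1 and VEGFC were the genes of this list lower in every targeted library. KDR and FLT4, the receptors of VEGFA and VEGFC on endothelial cells, were not analysed here.

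The FGF list had 24 genes, of which 10 were analysed and 8 compared, with 2 genes higher in each targeted library and 3, 3 and 2 lower in the AP1-69, AP1-71 and FOXF1 libraries, beside 8.18%, 14.0% and 11.6% of all compared genes higher and 9.93%, 14.7% and 13.2% lower. FGF1 and FIBP, an intracellular FGF-binding protein, were the higher ones in each case, with log2 ratios of 0.94, 1.02 and 1.02 for FGF1 and 0.62, 0.63 and 0.80 for FIBP. FGF5, a ligand known for its role in the hair cycle, was at 11.6, 10.5 and 9.2 RPKM in the targeted libraries, against 17.4 RPKM with sgRNA-NT. The receptor-like FGFRL1 was at 8.8, 6.5 and 11.3 RPKM against 14.2 RPKM, and the heparan sulphate proteoglycan GPC1 at 54.5, 32.4 and 64.5 RPKM against 84.5 RPKM. FGF5 was lower in all 3, with the first at exactly the 1.5-fold limit. Besides FGF5, the lower gene with sgRNA-FOXF1 was FGF2, already counted above. FGFRL1 and GPC1 were past the limit with the enhancer guides and not with sgRNA-FOXF1, a difference that was not tested or corrected for GC content.

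Of 7 PDGF genes, 6 were analysed and 4 compared, with 1 gene higher in each targeted library and 1, 2 and 1 lower in the AP1-69, AP1-71 and FOXF1 libraries, again beside 8.18%, 14.0% and 11.6% of all compared genes higher and 9.93%, 14.7% and 13.2% lower. The lower gene in each library was PDGFRA, already counted above, and with sgRNA-AP1-71 PDGFC was lower too (log2 ratio -0.59). The higher gene, PDGFRL, reached the mean of 2 RPKM through the targeted libraries alone, so its count is a description. PDGFRL, a receptor-like gene, was at 2.4, 1.8 and 4.2 RPKM in the targeted libraries and at the floor with sgRNA-NT, so it was at least 2.4-fold, 1.8-fold and 4.2-fold higher. The ligand PDGFC was at 5.8, 4.9 and 6.7 RPKM against 7.4 RPKM, and PDGFA and PDGFD were at the floor in all 4 libraries. Of the HGF and MET list, MET was the 1 gene compared among 10, as MST1, MST1R and GAB1 were at the floor like HGF. In the TAM list of 5 genes, 3 were compared: beside AXL and GAS6, the receptor TYRO3 was at 4.7, 3.7 and 5.8 RPKM against 3.0 RPKM, and was higher with sgRNA-AP1-69 (log2 ratio 0.65) and sgRNA-FOXF1 (0.95).

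Markers of the fibroblast were present in every library: 9 of 10 were compared, PDGFRB among them, with a summed level of 5350, 5576 and 5355 RPKM in the AP1-69, AP1-71 and FOXF1 libraries and 3933 RPKM with sgRNA-NT, most of it VIM and S100A4. Relative to sgRNA-NT 4, 4 and 1 of these 9 were lower and 1, 1 and 3 higher, beside 9.93%, 14.7% and 13.2% of all compared genes lower and 8.18%, 14.0% and 11.6% higher, and FAP was at the floor throughout. Of 9 endothelial markers TIE1 and EGFL7 were analysed (2 genes), and PECAM1, CDH5, VWF and KDR were not, with sums of 10.0, 9.6 and 14.6 RPKM against 9.8 RPKM. Of 7 epithelial markers KRT8 and KRT18 were analysed, with sums of 144.1, 83.6 and 137.7 RPKM against 80.5 RPKM, and of 7 mural markers 4 were, with sums of 20.4, 15.0 and 34.8 RPKM against 38 RPKM. In bulk RNA, fewer cells of a type and less RNA per cell cannot be told apart, and the part of cell composition in the values above was not tested.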

How the data were processed

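Per the paper's methods and the labels, the authors aligned single reads to hg19 with TopHat2, used HTSeq-count for read counts, turned these into RPKM by GENCODE gene models and quantile-normalized the RPKM values over the 4 libraries. For the aligner and counter, the version is not given in the sources used here. Library kits differ between the sources: the paper describes a strand-specific kit and the labels a TruSeq RNA kit, and whether the counting used strand is not stated. The deposited RPKM values have a floor of 1 and 1 decimal, and the sorted columns are equal at 72.5% of ranks, so a shift shared by most genes of a library has been removed. The 3 columns of log2 ratios that the authors deposited were not used.

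Log2 ratios were computed from the RPKM values without a pseudocount. Calls were made at a 1.5-fold difference over the 7596 genes that averaged 2 RPKM or more. With 1 library per condition no test was run. Positions, lengths and GC contents were taken from the Ensembl canonical transcript in GENCODE release 44 lifted to GRCh37, which gave a length for 7566 of the compared genes. Corrections used a cubic spline with 5 knots, and that for length was tested on simulated data. Corrected ratios of single genes are given for the 8 compared growth factor and receptor genes alone. Promoter windows are from RefSeq (GRCh38.p14). Named genes are all 10 listed genes and, in each pathway list, up to 5 others at a mean of 2 RPKM or more with the largest mean absolute log2 ratio over the 3 comparisons with sgRNA-NT, with FOXF1 and HRAS as checks. VEGFB, and the pairs of genes set in ratio within a library, were chosen after their values were seen. The genes, lists and tests were chosen with earlier results of these data known. Alternatives were a pseudocount of 1, no filter or a mean of at least 5 RPKM, centring on the median, both corrections and a 2-fold call. Python 3.11.15, numpy 2.4.6, pandas 2.3.3, scipy 1.17.1 and matplotlib 3.10.9 were used.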

Additional observations from a re-analysis of the deposited data

How the results depend on the processing

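With a 2-fold call, 2 of the 8 genes were lower with sgRNA-AP1-69 (VEGFC and PDGFRA), 1 with sgRNA-AP1-71 (VEGFC) and 2 with sgRNA-FOXF1 (VEGFC and PDGFRA), where each had 4 at 1.5-fold. After the length correction 2 were lower with sgRNA-FOXF1 (VEGFC and PDGFRA), beside 761 of 7566 genes (1005 of 7596 without it). Against the mean of the enhancer guides, the 1 higher gene with sgRNA-FOXF1 (ANGPTL4) became 0 after the GC correction, with a 2-fold call and at a mean of at least 5 RPKM, which leaves ANGPTL4 and FGF2 out, and the 1 lower gene (FGF2) became 0 with a 2-fold call, a pseudocount of 1 and that filter. Without a filter 1 gene, VEGFA at 1.7 against 1.1 RPKM, was higher with sgRNA-AP1-71 than with sgRNA-AP1-69. After seeing the data, the count of genes lower in all 3 targeted libraries was taken under the alternatives: it was 3 (VEGFC, PDGFRA and MET), and 1 (VEGFC) after the length correction or at 2-fold. Over all compared genes it was 444, and 242 after the length correction, 130 at 2-fold and 279 at a mean of at least 5 RPKM. The GC correction ended the call of MET with sgRNA-AP1-69 and sgRNA-FOXF1. VEGFC was called lower against sgRNA-NT in each targeted library under every alternative. Of 160 log2 ratios recomputed under another scaling or pseudocount, 150 moved by less than 0.29, the SD between the enhancer guides, 10 moved further (9 of them under the length correction) and 0 called ratios changed sign. The cause of these shifts was not tested.

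Over all compared genes, counts that moved by more than 1.5 times were as follows. With a 2-fold call, 102 genes were higher and 251 lower with sgRNA-AP1-69 (621 and 754 at 1.5-fold), for sgRNA-AP1-71 289 and 485 (1067 and 1117), for sgRNA-FOXF1 243 and 377 (883 and 1005), for sgRNA-AP1-71 against sgRNA-AP1-69 23 and 15 (183 and 216), and 88 and 35 with sgRNA-FOXF1 against the mean of the enhancer guides (445 and 269). At a mean of at least 5 RPKM, which leaves 5095 genes, these counts were 329 and 460, 643 and 699, 464 and 584, 80 and 115, and 246 and 161. With a pseudocount of 1, 353 genes were higher with sgRNA-AP1-69, 102 higher and 96 lower between the enhancer guides, and 142 lower with sgRNA-FOXF1 than with the enhancer guides. Without a filter 284 were higher between the enhancer guides, and after the GC correction 249 were higher and 146 lower with sgRNA-FOXF1 than with the enhancer guides. No paired analysis was possible because each condition has 1 library. Leaving out a library would remove its condition. Read depth is unknown, so values near the floor, such as those of VEGFA and HGF, have no counting error.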

Other observations

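VEGFA and ANGPTL4 are known targets of the hypoxia response, and other genes of that response were listed beside them. Of 14 such genes, 12 were analysed and 9 compared: relative to sgRNA-NT, 0, 4 and 1 were higher and 1 was lower in each of the AP1-69, AP1-71 and FOXF1 libraries, where 8.18%, 14.0% and 11.6% of all compared genes were higher and 9.93%, 14.7% and 13.2% lower. Other than the 4 higher genes with sgRNA-AP1-71, these counts are near the background. SLC2A1, the glucose transporter GLUT1, was the lower gene in each library, at 53.3, 45.7 and 32.9 RPKM in the AP1-69, AP1-71 and FOXF1 libraries against 98.0 RPKM with sgRNA-NT. NDRG1, a stress-induced gene, was at 3.0, 6.4 and 5.4 RPKM against 2.1 RPKM. BNIP3, a mitophagy receptor, was at 12, 20 and 13 RPKM against 9.8 RPKM, DDIT4, an inhibitor of mTORC1, at 10.9, 17.4 and 12.6 RPKM against 9.5 RPKM, and LDHA, a lactate dehydrogenase subunit, at 227.8, 361.4 and 175.8 RPKM against 191.8 RPKM. The sgRNA-AP1-71 library had the highest level of NDRG1, BNIP3, DDIT4 and LDHA, and 4 of the 9 genes were called higher in it than with sgRNA-AP1-69, although both guides aim at the same site and 2.41% of all compared genes were. In the sgRNA-AP1-69 library these 4 genes were also above sgRNA-NT, none of them by 1.5-fold. Their log2 ratios there were 0.51 (NDRG1), 0.29 (BNIP3), 0.20 (DDIT4) and 0.25 (LDHA). With 1 library each the difference between the guides was not tested.

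ANGPTL4 is also induced by PPAR receptors. Of 11 genes of that list, 8 were analysed and 6 compared, with 0 higher in any targeted library than with sgRNA-NT and 1, 2 and 0 lower in the AP1-69, AP1-71 and FOXF1 libraries, beside 8.18%, 14.0% and 11.6% of all compared genes higher and 9.93%, 14.7% and 13.2% lower. CPT1A, which brings fatty acids into mitochondria, was at 4.3 and 3.6 RPKM with the enhancer guides and 9.3 RPKM with sgRNA-FOXF1, against 7.7 RPKM with sgRNA-NT. PLIN2, a lipid droplet protein, was at 18.4, 21.8 and 20.1 RPKM against 14.6 RPKM, PPARD at 7.5, 6.6 and 9.3 RPKM against 9.9 RPKM, PPARG at 2.1, 1.7 and 1.9 RPKM against 2.3 RPKM, and the mitochondrial dehydrogenase ACADVL at 48.1, 48.8 and 60.1 RPKM against 44.3 RPKM. Both enhancer guides lay below the other libraries for CPT1A and PPARD, as for ANGPTL4, and not for PLIN2, PPARG or ACADVL. The levels of these other genes were not corrected for GC content.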
